A study of Mus musculus with 3 samples.

Results

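Reads of the transcription factors (TFs) FLI1 and RUNX1 and of input chromatin were counted around 10 genes of the cell cycle in mature mouse megakaryocytes (MKs), the bone marrow and fetal liver cells that shed platelets. The genes were the D-type cyclins Ccnd1, Ccnd2 and Ccnd3, the E-type cyclins Ccne1 and Ccne2, the kinase inhibitors Cdkn1a and Cdkn1b, and Aurkb, Ect2 and Plk1 of mitosis and cytokinesis. The rule named them for their ties to polyploidy and uses no read count, although it was written with earlier results of these data known, and all 10 were found among 22367 protein-coding genes of the annotation. The MKs were grown for 5 days, under thrombopoietin, from the livers of wild-type CD1 fetuses, then depleted of other blood lineages and sedimented through albumin to enrich large cells. The labels give embryonic day E15, the study's methods a day earlier, and the sources also differ on the library kit and on how the input was fragmented (sonication in the labels, micrococcal nuclease in the methods). There was 1 ChIP-seq library for each TF and 1 of input, with DNA of at least 3 replicates pooled in each, so no spread between replicates could be measured and no test was made. ChIP-seq records where a TF sits on DNA, and neither expression nor ploidy was measured here.

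MKs become polyploid by endomitosis, in which cells copy their DNA and enter mitosis but do not complete the separation of daughter cells. D-type cyclins and their kinases release the restraint of RB proteins on the cycle, E-type cyclins with CDK2 start DNA replication, and the inhibitors p21 (Cdkn1a) and p27 (Cdkn1b) bind and restrain these kinases. Aurora B, the exchange factor ECT2, which activates RHOA at the cleavage furrow, and the kinase PLK1 act in chromosome segregation and cytokinesis. FLI1, an ETS-family TF, and RUNX1, a Runt-family TF, are regulators of the MK lineage.

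The depth of the libraries sets what can be seen at these genes. After removal of mitochondrial reads and repeated input positions, 62946422 FLI1, 3973856 RUNX1 and 21745220 input reads remained, or 13.5, 0.85 and 4.65 reads per 400 bp of genome. Reads of FLI1 at the starts of MK genes checked the labelled cell type. The 5 MK markers reported here (Itga2b, Itgb3, Gp1ba, Gp9 and Pf4) had depth-scaled FLI1-to-input ratios of 2.53 or more within 2 kb of the transcription start site (TSS), whereas 2 of 9 erythroid, myeloid and lymphoid markers reached 2-fold (Epor 2.39, Mpo 2.45), near the 25.1% of all genes that passed the enrichment rule given with the gene starts. The lowest of those 9 was Klf1 at 0.788.

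The DNA under the strongest FLI1 sites is given before the values. Printed are 101 bases around the FLI1 summit (the base covered by most FLI1 fragments) at the strongest site of Ccnd2, Ccnd3, Cdkn1a, Cdkn1b and Ect2, and at a second Ccnd3 site. RUNX1 reads also passed the limit for a called bin, given further on, at both Ccnd3 sites and at the Cdkn1b site. All sequences are from mm9, on the plus strand and 5′ to 3′. Capitals mark an ETS word (CCGGAAG and its variant CCGGAAA, and likewise the word CAGGAAG and its variant CAGGAAA), a RUNX word (TGTGGT and its variant TGCGGT) or the shorter ETS core CGGAA, on either strand.
Ccnd2 chr6:127115818-127115918: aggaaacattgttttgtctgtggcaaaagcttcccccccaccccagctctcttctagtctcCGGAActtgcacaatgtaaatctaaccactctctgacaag
Ccnd3 chr17:47658630-47658730: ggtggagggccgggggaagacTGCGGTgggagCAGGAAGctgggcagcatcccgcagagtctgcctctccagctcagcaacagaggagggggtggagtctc
Ccnd3 chr17:47732526-47732626: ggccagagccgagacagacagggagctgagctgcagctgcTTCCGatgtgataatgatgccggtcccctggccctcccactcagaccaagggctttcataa
Cdkn1a chr17:29232497-29232597: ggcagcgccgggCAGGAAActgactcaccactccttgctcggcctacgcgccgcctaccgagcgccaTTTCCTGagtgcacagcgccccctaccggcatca
Cdkn1b chr6:134878419-134878519: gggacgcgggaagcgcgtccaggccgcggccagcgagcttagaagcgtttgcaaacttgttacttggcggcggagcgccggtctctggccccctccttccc
Ect2 chr3:27052148-27052248: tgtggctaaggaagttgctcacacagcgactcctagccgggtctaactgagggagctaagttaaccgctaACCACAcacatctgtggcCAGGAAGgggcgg
The intronic Ccnd3 window at 47658630 held an ETS and a RUNX word, as did the Ect2 window, and the intronic Cdkn1a window held 2 ETS words. The other Ccnd3 window and that of Ccnd2 held only CGGAA, and the Cdkn1b window held none of these words. The window at the strongest Ccne1 site, 22482 bp downstream of its TSS and not printed, also held none.

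At the gene starts, FLI1 was enriched at 5 of the 10 genes, Ccnd2, Ccnd3, Ccne1, Cdkn1b and Ect2, where enriched means a depth-scaled ratio to input of at least 2 within 2 kb of the TSS, with the lower end of its exact 95% counting interval above 1. By this rule 25.1% of all genes with input reads were enriched. On FLI1 reads alone, against the genome-wide rate, Ccnd2 (3.65 times), Ect2 (2.2) and Ccnd3 (2.03) stood highest of the 10. The share of all genes at such levels was not counted. Input was below its own genome-wide rate at Ccnd2 (0.688 times) and Ect2 (0.731) and close to it at Ccnd3 (0.967). Cdkn1b (FLI1 at 1.67 times) and Ccne1 (1.38) passed the ratio rule with input at 0.602 and 0.666 times its rate. Aurkb (1.68) and Plk1 (1.54), with input at 1.1 and 1.46 times, did not. At a 1.5-fold limit 7 of the 10 passed (background 39.0%), and at a 3-fold limit Ccnd2 and Ect2 did (background 9.18%). The median ratio of the 10 was 1.84, against 1.28 for all genes (quartiles 0.883 and 2.03). A larger ratio can come from more cells with FLI1 at the site or more FLI1 per cell, which cannot be told apart in bulk chromatin. Fewer input reads also raise it. Input reads were 34 bp long, and FLI1 and RUNX1 reads 50 bp. The effect of this difference on the ratios and called bins was not tested. The TSS windows of the 10 genes also had a higher GC content (median 53.4% against 48.4%), and its part in the ratios was not tested. In 5 equal groups of genes of rising GC content, the FLI1 median ran 1.13, 1.42, 1.47, 1.37 and 1.23.

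Among the D-type cyclins, which couple growth signals to the cell cycle, the ratios spread most. Ccnd2 (chr6:127075797-127101066, minus strand) had 491 FLI1, 9 RUNX1 and 32 input reads in its TSS window. Its FLI1 ratio of 5.30 (interval 3.71 to 7.84) was the highest of the 10 and ranked 185 among 20448 genes with at least 20 input reads. Ccnd3 (chr17:47642000-47736632, plus strand), encoding a D cyclin tied to MK polyploidy, had 274 FLI1, 6 RUNX1 and 45 input reads, a ratio of 2.10 (1.53 to 2.95). Ccnd1 (chr7:152115836-152125774, minus strand) had 160, 7 and 45 reads. Its ratio of 1.23 (0.878 to 1.75) was below the median of all genes, and its interval did not overlap that of Ccnd2.

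The E-type cyclins lay close together. Ccne1 (chr7:38883003-38892553, minus strand) had 186 FLI1, 10 RUNX1 and 31 input reads, a FLI1 ratio of 2.07 (1.41 to 3.14). Ccne2 (chr4:11118498-11131926, plus strand) had 177, 15 and 38 reads, a ratio of 1.61 (1.13 to 2.35). The interval of each took in the ratio of the other, although Ccne1 passed the 2-fold limit and Ccne2 did not. Their difference was not tested.

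The inhibitors differed at their TSS. Cdkn1b (chr6:134870419-134875531, plus strand), which encodes p27, had 225 FLI1, 10 RUNX1 and 28 input reads and a FLI1 ratio of 2.78 (1.87 to 4.27), above that of 88.2% of genes. Cdkn1a (chr17:29227924-29237667, plus strand), which encodes p21, had 158, 13 and 60 reads. Its ratio of 0.910 (0.672 to 1.25) was the lowest of the 10, with an interval clear of that of Cdkn1b. This order holds for the start of the gene record only, since 2 kb around another Cdkn1a start gave a ratio of 3.15 (2.37 to 4.25), overlapping that of Cdkn1b.

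Of the genes of mitosis and cytokinesis, Ect2 (chr3:26996144-27052800, minus strand) stood highest, with 297 FLI1, 11 RUNX1 and 34 input reads and a FLI1 ratio of 3.02 (2.11 to 4.44). Aurkb (chr11:68859149-68865166, plus strand), the kinase of the chromosomal passenger complex, had 226, 9 and 51 reads and a ratio of 1.53 (1.13 to 2.12). Plk1 (chr7:129302951-129313389, plus strand) had 207, 10 and 68 reads and a ratio of 1.05 (0.796 to 1.4), its interval lying below that of Ect2. In order of the ratio the 10 genes ran Ccnd2, Ect2, Cdkn1b, Ccnd3, Ccne1, Ccne2, Aurkb, Ccnd1, Plk1 and Cdkn1a, and the intervals of all neighbours in this order overlapped.

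**Figure D1:**
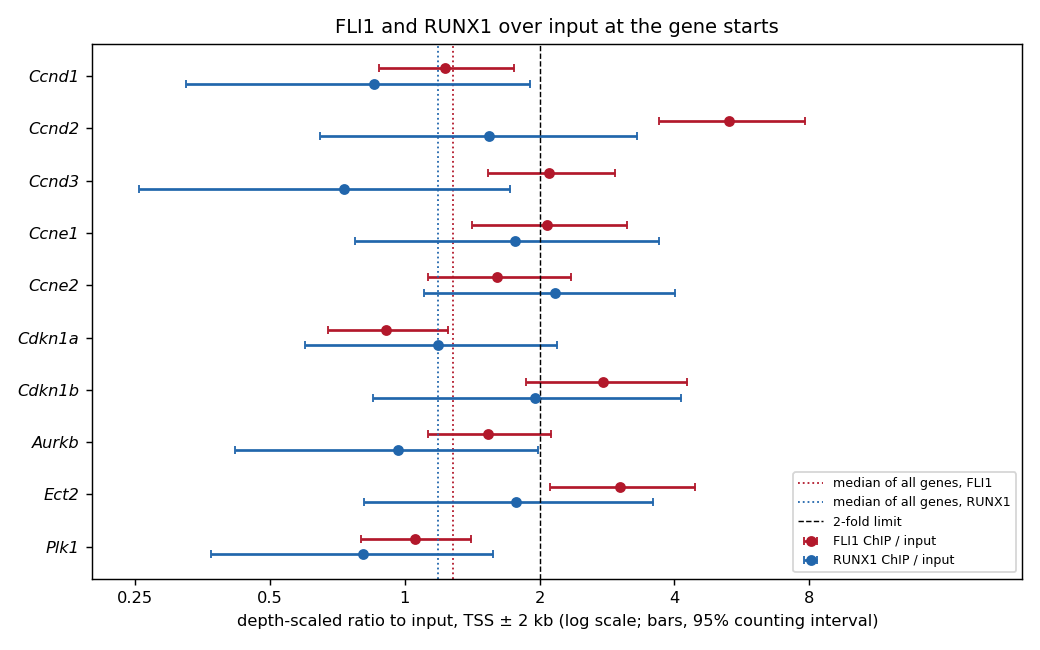
Depth-scaled FLI1 (red) and RUNX1 (blue) reads over input within 2 kb of the TSS of each gene, on a log axis, with exact 95% counting intervals as bars. Dotted lines are the medians of all genes (1.28 and 1.18) and the dashed line the 2-fold limit. Ccnd2 has the highest FLI1 ratio at 5.30, with an interval that overlaps those of Ect2 and Cdkn1b, and the RUNX1 intervals are wide.

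The width of the window changed which genes passed. Within 500 bp of the TSS 7 of the 10 were at least 2-fold over input (background 40.8%), with Ccne2 and Aurkb added, and within 1 kb 8 were (background 36.5%), with Plk1 added at 2.02 (1.30 to 3.25). Cdkn1b had the highest ratio within 500 bp, 9.21 (3.04 to 45.6), from 80 FLI1 and 3 input reads. Those 80 reads were 2.37 times the genome-wide FLI1 rate, and the 3 input reads 0.258 times the input rate. Ccnd3 had 189 FLI1 and 9 input reads there, a ratio of 7.26 (3.74 to 16.1), and at 5.61 times the genome-wide rate it was the highest of the 10 in FLI1 reads alone. Ccne2 had 36 FLI1 reads, 1.07 times the genome-wide rate, against 4 input reads at 0.344 times. The Ccne2 ratio of 3.11 within 500 bp thus came with few input reads and with FLI1 close to its genome-wide rate. Ccnd1 (1.01) and Cdkn1a (1.22) stayed near input in the narrow window, with 44 and 46 FLI1 reads against 15 and 13 of input. Ccne1 passed there with 47 FLI1 reads against 5 of input, so it differed from Ccnd1 and Cdkn1a mainly in input. Plk1, with 77 FLI1 reads against 18 of input, did not pass there, although its FLI1 reads were close to those of Cdkn1b. Summed over the 10 genes, FLI1 was 1.46 times as dense within 500 bp as from 500 to 2000 bp, against 2.07 for all genes. Input was 0.845 and 0.933 times as dense in the same comparison. Ccnd2 weighs on the FLI1 sum, with 87 of its 491 reads within 500 bp, and the step without Ccnd2 was not counted.

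Further starts of these genes gave other values. Ccnd3 has a protein-coding start 88416 bp downstream of the first, and 100 FLI1 reads stood against 8 of input within 500 bp of it, a ratio of 4.32 (2.11 to 10.3). Cdkn1a, near input at its gene start, had 105 FLI1 and 16 input reads at a start 2793 bp downstream, a ratio of 2.27 (1.33 to 4.11). At the Cdkn1a start 7228 bp downstream, 18 FLI1 and 15 input reads gave 0.415. In windows of 2 kb on either side, the downstream Ccnd3 start had 478 FLI1, 16 RUNX1 and 35 input reads, a FLI1 ratio of 4.72 (3.35 to 6.86) and a RUNX1 ratio of 2.50 (1.29 to 4.64). The Cdkn1a start at 2793 bp had 492, 13 and 54 reads in such a window, which takes in an intronic site described with the bins. With the best start of each gene, Cdkn1a joined the 5 genes enriched for FLI1, making 6 of 10 (background 27.1%), and Ccnd3 joined Ccne2 for RUNX1, making 2 of 10 (background 16.0%).

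Each gene and 20 kb on either side of it was then split into 400-bp bins. A bin was called when it held at least 8 reads and at least 3 times the reads expected from the genome-wide rate or the depth-scaled input around it, whichever was higher. Ccnd2, Ccnd3, Ccne1 and Ect2, 4 of the 10, had a called FLI1 bin less than 2 kb from the TSS, as did 33.9% of all genes. Over the gene body and flanks, 8 of the 10 had a called FLI1 bin, where 60.0% of all genes did. In all 52 bins were called and 1559 were not, where 0.437% of bins with a read were called over the genome, and they joined into 38 sites. With the limit at 2-fold, 94 bins passed (0.889% over the genome), at 5-fold 22 (0.182%), and 14 (0.107%) once FLI1 reads were thinned to the number of RUNX1 reads. These bins were spread unevenly, with 25 at Ccnd3, 8 each at Ccnd2 and Cdkn1a, 4 at Aurkb, 2 each at Ccnd1, Ccne1 and Cdkn1b, 1 at Ect2 and none at Ccne2 and Plk1. The median over all genes was 1 bin and the 99th percentile 10. As a share of a gene's own bins, the median over all genes was 0.606%. The shares over the genome also take in bins far from any gene.

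Ccnd3 ranked 5 of 22367 genes by the number of called FLI1 bins. Its gene is long, yet called bins made up 7.40% of its 338 bins, a higher share than in 99.3% of genes. The 25 bins formed 17 sites. A site 63 bp into the gene held 153 FLI1 and 2 input reads within 200 bp of its summit, and 5 intronic sites followed within 22 kb, the strongest 16680 bp downstream of the TSS with 194 FLI1 and 2 input reads. A cluster of sites lay around the downstream start. The strongest there, 2160 bp past that start in an intron, held 280 FLI1, 10 RUNX1 and 2 input reads, and its best bin, with 277 FLI1 reads, was 20.6 times expected, the highest of any bin at the 10 genes. Of the 17 sites 1 fell 28 bp from the TSS of Med20 and 1 in an exon of Bysl, so not all of them need concern Ccnd3.

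**Figure D2:**
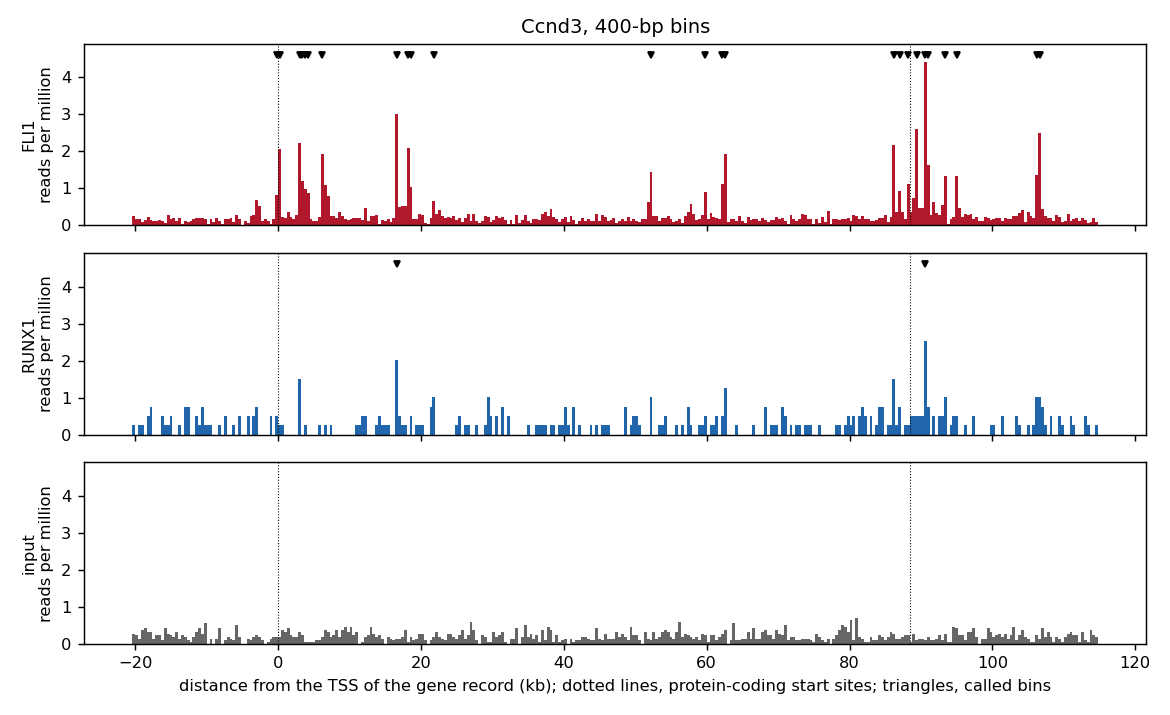
Depth-scaled reads in 400-bp bins across Ccnd3 and 20 kb on either side, for FLI1, RUNX1 and input on the same scale, against distance from the TSS in kb. Dotted lines are protein-coding starts and triangles called bins, 25 for FLI1 and 2 for RUNX1. The tallest FLI1 and RUNX1 bins coincide just past the downstream start, and input is flat by comparison.

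Ccnd2 had sites at its start and upstream of it. Within 2 kb of the TSS, 5 called bins formed 3 sites, the strongest 1066 bp upstream with 124 FLI1 and 6 input reads within 200 bp of the summit. Of the 3 intergenic sites, 4063, 11954 and 14802 bp upstream, the farthest was the strongest, with 156 FLI1 and 2 input reads and a best bin 11.4 times expected. No site lay farther into the gene than one 979 bp downstream of the TSS.

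Cdkn1a, the gene with the lowest FLI1 ratio at the start of its record, had as many called bins as Ccnd2, none within 2 kb of that start. Its strongest site lay in an intron 4623 bp downstream, 1830 bp past the start at 2793 bp, with 237 FLI1, no RUNX1 and 4 input reads within 200 bp of the summit and a best bin 14.8 times expected. Sites 20573 and 23130 bp downstream of the TSS, beyond the gene's end, held 161 and 118 FLI1 reads against 3 and 10 of input. The 3 upstream sites, 8755, 11896 and 14560 bp away, were weaker, with 50 to 63 FLI1 reads each. Called bins made up 6.35% of the 126 bins of Cdkn1a, although 20 of these bins held no read in any library.

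The other members had few sites. Ect2 had 1 site, 602 bp downstream of the TSS in an intron, with 120 FLI1, 5 RUNX1 and 4 input reads and a best bin 8.91 times expected. Cdkn1b had a site in an exon (43 FLI1 and 2 input reads) and an intergenic site 8050 bp downstream of its TSS (65 and 4 reads), each just over the 3-fold limit at 3.05 and 3.18. Ccne1 had 49 FLI1 and 4 input reads at a site 968 bp upstream, and 67 and 2 at a site 22482 bp downstream of its TSS, beyond the gene's end, with best bins 3.34 and 3.52 times expected. At Aurkb the strongest site (93 FLI1 and 1 input reads) was 93 bp from the TSS of 2310047M10Rik, and the other 2, 4684 and 9621 bp upstream, were at 3.04 and 3.18 times expected. The only site at Ccnd1 was 296 bp from the TSS of Oraov1. Plk1 had its highest bin at the TSS, with 44 FLI1 and 4 input reads, 2.48 times expected and below the limit. No Ccne2 bin passed 24 FLI1 reads, and its best fold was 1.71.

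**Figure D3:**
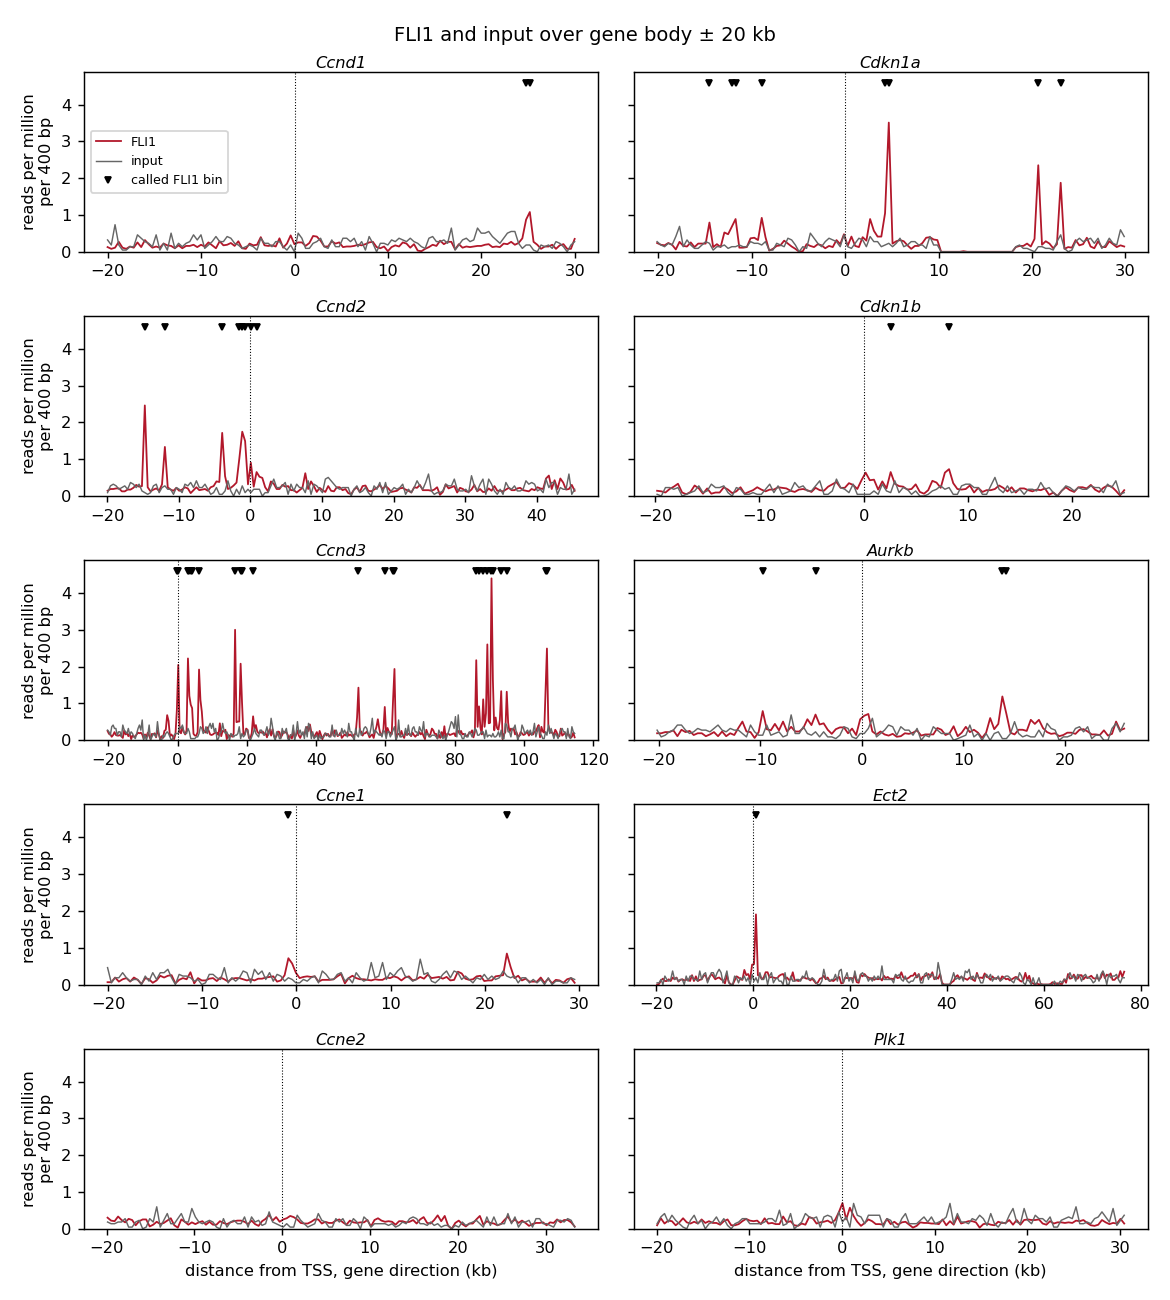
Depth-scaled FLI1 (red) and input (grey) reads per 400-bp bin over each gene and 20 kb on either side, against distance from the TSS in kb, with the same vertical scale in all panels. Triangles are called FLI1 bins. Ccnd3 carries 25 of the 52, the Cdkn1a bins lie away from its start, and Ccne2 and Plk1 have none.

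**Figure D4:**
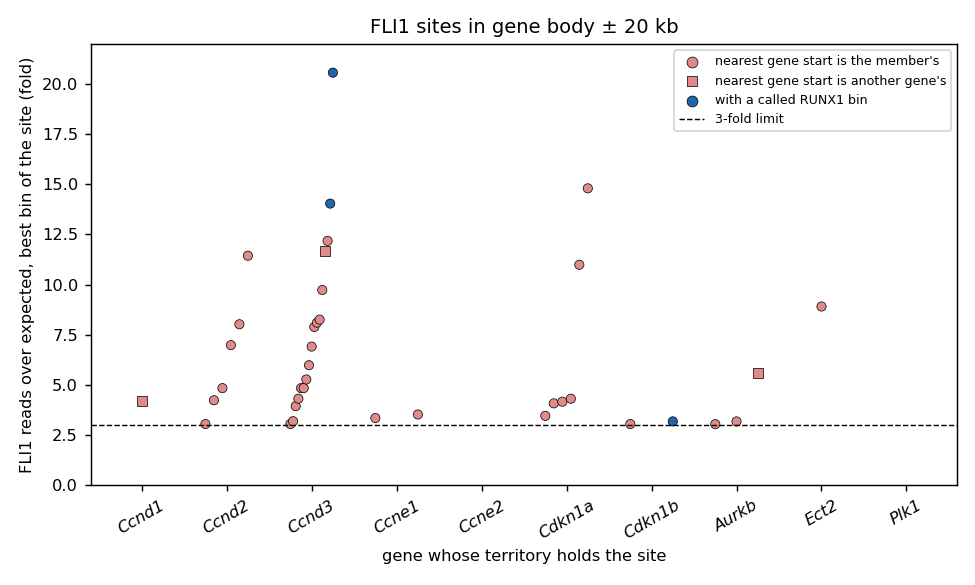
FLI1 reads over expected in the best bin of each of the 38 FLI1 sites, grouped by gene and ordered by fold within a gene. Squares are sites nearer to the start of another gene, blue marks the 3 sites with a called RUNX1 bin, and the dashed line is the 3-fold limit. The 3 highest are at Ccnd3 (20.6 and 14.0) and Cdkn1a (14.8).

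RUNX1 counts were low, with a median of 9 reads in the TSS window over all genes. The RUNX1 file analysed here holds far fewer reads than the unique tags that the study's supplement lists, so its low counts describe this file and are no measure of weak RUNX1 binding. By the rule used for FLI1, RUNX1 was enriched at the TSS of 1 of the 10 genes, against 13.9% of all genes. That gene was Ccne2, with 15 RUNX1 reads and a ratio of 2.16 (1.10 to 4.02). The other ratios ran from 0.730 (0.254 to 1.72) at Ccnd3 to 1.95 (0.847 to 4.15) at Cdkn1b. All 10 intervals overlapped one another. Differences between single genes were not tested, and no order among them is read at this depth. Within 500 bp, where the background was 16.0%, Ccne1 and Ccne2 passed with 5 RUNX1 reads each, against 5 and 4 of input. Within 1 kb (background 16.5%) Ccne1, Ccne2 and Ect2 passed, at 3.48, 3.83 and 3.28. Input at Ccne1 and Ccne2 was low there, at 0.473 and 0.430 times its genome-wide rate.

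No RUNX1 bin was called within 2 kb of any of the 10 starts, where 1.72% of all genes had one. Over the gene bodies and flanks, 2 of the 10 had one, against 5.29% of all genes, with 3 called bins in all, where 0.0159% of bins with a read were called over the genome. With at least 6 reads asked for in place of 8, 7 bins passed (0.0996% over the genome). At Ccnd3 the bin at the intronic site 16680 bp downstream of the TSS held 8 RUNX1 reads, 9.41 times expected and the fewest the limit allows, of which 2 were on the plus and 6 on the minus strand. The bin just past the downstream Ccnd3 start held 10 RUNX1 reads, 5 on each strand, at 11.8 times expected. At Cdkn1b a bin about 8 kb downstream of the TSS held 9 RUNX1, 46 FLI1 and 5 input reads. All 3 RUNX1 bins were also called for FLI1, and the 2 at Ccnd3 were its strongest FLI1 bins by fold. At Cdkn1b the FLI1 fold of 3.18 was just over the limit. Bins of both TFs were called against the same input. The share of RUNX1 bins over the genome that were also called for FLI1 was not counted. The strongest FLI1 site of Cdkn1a held no RUNX1 read within 200 bp of its summit, a count that allows up to 3 reads. The called bins of this site held up to 2 RUNX1 reads, and those of other Cdkn1a sites up to 4. With 0.85 RUNX1 reads per 400 bp of genome, such counts cannot show a lack of RUNX1 there.

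Pooling bins gave more reads than any single site. The 52 called FLI1 bins held 128 RUNX1 and 203 input reads, a depth-scaled ratio of 3.45 (2.74 to 4.33), whereas the other 1559 bins around the 10 genes held 1167 and 6774, a ratio of 0.943 (0.885 to 1.00). Called FLI1 bins over the genome had a RUNX1 ratio of 2.82 (2.79 to 2.84). Since a bin is called against the same input, low input in called bins raises these RUNX1 ratios too, and the size of this was not tested. By gene, Ccnd3 gave 76 of the 128 RUNX1 reads, at a ratio of 4.00 (2.94 to 5.43), against 0.919 in its other bins. Of these 76 reads, 8 and 10 fell in its 2 called RUNX1 bins. The ratio was 2.07 (1.03 to 3.92) at Cdkn1a and 2.28 (0.973 to 4.95) at Ccnd2. Cdkn1b, Aurkb and Ect2 gave 9, 8 and 5 reads, with ratios of 7.04 (2.33 to 22.2), 4.38 (1.50 to 12.3) and 6.84 (1.47 to 34.5). All 9 Cdkn1b reads fell in its called RUNX1 bin. Ccnd1 and Ccne1 gave 3 reads each, at 2.05 (0.351 to 8.55) and 1.82 (0.318 to 7.31).

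The words marked in the sequences were counted at all sites. Within 50 bp of the summit, 16 of the 38 sites held an ETS word (42.1%, exact interval 26.3 to 59.2%), compared with 11.8% of windows 500 bp away on either side. At the 20963 FLI1 sites of the genome these shares were 58.4% and 7.82%. A RUNX word stood at 7 of the 38 sites (18.4%, interval 7.74 to 34.3%) against 7.89% in the flanks, and at 18.6% of sites in the genome. CGGAA, which overlaps 2 of the ETS words and was added after the printed sequences had been seen, was at 12 of the 38 (31.6%) and at 34% of sites in the genome. In the 300 bases from 250 before to 50 after the gene start, Ccnd3 held 2 ETS words and Ccne2 1, and Ccnd3 and Ect2 held 1 RUNX word each, while CGGAA stood in 0 of the 10. Of all genes, 31.3% held an ETS word, 21.5% a RUNX word and 34.1% CGGAA in such a window.

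A wider list of 63 cell-cycle genes, sorted by role, was counted in the same way. FLI1 was enriched at the starts of 27 of them (background 25.1%), with a median ratio of 1.83 beside the 1.84 of the 10 genes, and RUNX1 at 20 (background 13.9%). A called FLI1 bin lay within 2 kb of 41 of the 63 (background 33.9%), and a called RUNX1 bin at 1, Fbxw7, which is close to the background of 1.72% and no result about the list. By role, and against 25.1% of all genes, FLI1 was enriched at 6 of 10 E2F-family genes and 5 of 10 of replication licensing. It was enriched at 4 of 6 of the ubiquitin ligases, 5 of 10 of cytokinesis and 4 of 11 of the mitotic kinases and checkpoint. The 2 of 9 cyclins and kinases and 1 of 7 inhibitors and pocket proteins did not exceed that share. Of the inhibitors, Cdkn2d had only 2 input reads in its window. RUNX1 was enriched at 6 of 10 E2F-family genes, 6 of 10 of cytokinesis, 3 of 6 of the ubiquitin ligases, 2 of 9 cyclins and kinases, 2 of 11 of the mitotic kinases and checkpoint, 1 of 10 of licensing and 0 of 7 inhibitors and pocket proteins, against 13.9% of all genes. The highest FLI1 ratios were those of Myh9 (7.54, interval 4.97 to 12.0), which encodes nonmuscle myosin heavy chain IIA, E2f3 (5.29, 3.68 to 7.88), an E2F activator of replication genes, and Mad2l1 (5.12, 3.49 to 7.80), of the spindle checkpoint. The lowest were Cdca8 (0.544, 0.382 to 0.780), which encodes the passenger protein borealin, Ccna1 (0.701, 0.464 to 1.08), a cyclin of the germ line, and Cdc6 (1.19, 0.863 to 1.65), a licensing factor.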

How the data were processed

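Reads had been aligned by the authors to mm9 using Bowtie (version not given in the sources used here) and, by their methods, limited to unique, non-redundant matches. No position and strand repeats in the ChIP files, whereas some do in the input. The deposited files give each read's chromosome, start, end and strand. The submitters' processing notes also name MACS 1.4 and SICER 1.1, which were not run here. The deposited values are positions, and every count was made here. Of the input, 3.24% of reads repeated a position and 1 read per position and strand was kept.

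Reads were moved to the middle of their fragments (126, 159 and 158 bp for FLI1, RUNX1 and input). Ratios were scaled by library depth, with exact conditional binomial (Clopper-Pearson) 95% intervals, which cover counting error only and were not adjusted for fragments read at both ends. For bins, the expected count was the largest of 4 rates: genome-wide, and scaled input over 400 bp, 2 kb and 10 kb. Adjacent called bins formed a site. Gene models were GENCODE M1 on mm9, with the TSS at the 5′ end of the gene record. On sampled reads, 96.5% of FLI1 and 96.4% of RUNX1 sequences matched mm9 with at most 2 mismatches. The ratio and the calling limits, but not the counting of reads, were tested on simulated counts. Python 3.11.15, numpy 2.4.6 and scipy 1.17.1 were used.

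The members and lists were chosen with earlier results of these data known. The text names all 10 members and, of the wider list, the 3 highest and 3 lowest FLI1 ratios with at least 20 input reads. Alternatives changed the windows, limits, bin position, fragment length, expectation, scaling, input duplicates, flanks and FLI1 depth. Of the MK marker list, 1 gene is not reported here.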

Additional observations from a re-analysis of the deposited data

How the results depend on the processing

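With 1 library per TF, leaving out a replicate was not possible, and no result has a measure of spread between precipitates. No paired analysis was possible because each group has 1 library and the results come from no test. The count of 5 members with FLI1 enriched at the TSS became 8 within 1 kb (36.5% of all genes) and 2 at a 3-fold limit (9.18%). For RUNX1 the count of 1 became 3 within 1 kb (16.5% of all genes), 2 within 500 bp (16.0%), 2 at the best start of a gene (16.0%) and 0 at a 3-fold limit (4.02%). Members with a called FLI1 bin within 2 kb of the TSS went from 4 to 8 at a 2-fold limit (43.9% of all genes) and to 1, Ccnd3, with FLI1 thinned to the RUNX1 depth, close to the 12.3% of all genes. The 52 called FLI1 bins became 94 at 2-fold (0.889% of bins over the genome), 22 at 5-fold (0.182%) and 14 after thinning (0.107%), with 10 at Ccnd3 and 2 each at Ccnd2 and Cdkn1a, and the 3 RUNX1 bins became 7 with a limit of 6 reads (0.0996%). At equal depth FLI1 thus still gave more called bins than RUNX1 at these genes, in 1 thinned draw. The same held over the genome, with 6389 FLI1 bins against 943 RUNX1 bins, so the excess is not particular to these genes. The other 40 recomputed counts stayed within 1.5 times, among them RUNX1 bins at 2-fold and 5-fold limits (3 each), which says nothing of stability because the minimum of 8 reads already asks for a higher fold. Of the values of single genes, 207 stayed and 63 moved, where a ratio had to stay within its interval and a bin count within 1.5 times. The depth of the RUNX1 file leaves sites of moderate strength undetectable.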
